A study of Homo sapiens with 8 samples.

Results

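The enzymes that make, modify and spend nicotinamide adenine dinucleotide (NAD) were followed in HEK293T, an established line derived from human embryonic kidney, in a study of RNA that carries NAD as its 5′ cap. The 10 genes were NAMPT, NMNAT1, NMNAT2, NMNAT3, NADSYN1, NAPRT, NADK, PARP1, SIRT1 and NNT, chosen by name. They had 20 of the 53216 transcript rows of the deposited table, and each gene was read as the sum of its rows, as 10 of 26005 gene symbols. The values were FPKM, fragments scaled to transcript length and to the size of the library, so levels of different genes are compared per length.

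The 8 libraries fell into 3 groups. WT RiboMinus (2 libraries) held RNA of wild-type cells depleted of ribosomal RNA, and served as the baseline. WT NAD-Capture (3 libraries) held wild-type RNA on which an ADP-ribosyl cyclase and a click reaction had put biotin at NAD, followed by streptavidin beads. The remaining group (3 libraries) had the same capture from cells that the labels call DXO-KO, in which DXO, an enzyme that removes NAD caps, should be knocked out. The labels named no treatment, and did not say whether the knockout was 1 clone or whether replicates were separate cultures, so p-values measure only the spread between these libraries, which may be technical. Libraries of the control reaction without the cyclase were not analysed here, so binding to beads without NAD was not subtracted. RiboMinus RNA went through a TruSeq kit and captured RNA through a SMARTer low-input kit, so capture and kit cannot be told apart.

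Cells make most of their NAD by salvage. NAMPT turns nicotinamide into nicotinamide mononucleotide, and the NMNAT enzymes (NMNAT1 in the nucleus, NMNAT2 at the Golgi and in axons, NMNAT3 in mitochondria) complete the dinucleotide. NAPRT starts the parallel route from nicotinic acid, which NADSYN1 finishes by amidation. NADK phosphorylates NAD to NADP, and NNT, in the inner mitochondrial membrane, uses the proton gradient to make NADPH from NADH. PARP1 spends NAD to build poly(ADP-ribose) at DNA breaks, and SIRT1 spends it to take acetyl groups off proteins. NAD can itself become an RNA cap when a polymerase starts a transcript with it in place of ATP, so the first transcribed base of such an RNA is A.

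That requirement gives a reason to look at the first base of these genes. The windows below hold 20 bases before and 10 bases from an annotated start, 5′ to 3′ on the strand of the gene, from RefSeq on GRCh38.p14. The capital marks the first transcribed base, and the genes shown are those the comparisons turn on, with the highest-expressed gene (PARP1) and the first enzyme of salvage (NAMPT).
PARP1, chr1:226408084-226408113, minus strand: cgttcccgcggccaggcatcAgcaatctat
NAMPT, chr7:106284974-106285003, minus strand: ccctcctccgccgaccgagcAgtgacttaa
NMNAT1, chr1:9943455-9943484, plus strand: ctggcgtccgggccgctggtGatctccggt
SIRT1, chr10:67884636-67884665, plus strand: gcagccggagccgcgggggcGccagtgccg
NNT, start 1, chr5:43602655-43602684, plus strand: ttcccgcccttcaccaacccCtctccgcct
NNT, start 2, chr5:43603160-43603189, plus strand: cccgccgccgcggagttgggGctgttcttc

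PARP1 and NAMPT had A at the annotated start, NMNAT1 and SIRT1 had G, and NNT had C at one start and G at the other. The RefSeq table held 14 starts for 9 of the genes (no entry matched NAPRT), and 6 of the 14 began with A. Among all 35116 starts of the table, 44.4% began with A. The start of the nearest transcript of the table for the same gene lay 13 to 209 nt away in the windows printed here, so the letter belongs to one annotated position and was not measured in these libraries.

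The depth of the libraries sets how firmly each level is known. Read from the smallest steps between low values, depth amounted to 10697600 and 8758490 fragments for RiboMinus, 165303 to 248583 fragments in WT NAD-Capture, and 802537, 138072 and 80461.5 fragments in replicates 1, 2 and 3 labelled DXO-KO. Of the 60 NAD-Capture values of the 10 genes, 40 rested on 10 fragments or fewer. That count includes the values of NADSYN1, whose fragment estimates were not near whole numbers and are not given. DXO RNA, from the gene named in the labels, stood at 11.2 and 14.3 FPKM at baseline. The captured levels were 33.2, 17.2 and 27.1 FPKM for WT, against 127.6, 61.6 and 71.7 FPKM for DXO-KO. Every library labelled DXO-KO was thus above every other library, so no loss of DXO RNA was seen. Between the capture groups DXO did not pass (limma adjusted p = 0.114), and 11.8% of genes tested lay wholly above. Replicates 2 and 3 so labelled rested on 12 and 8 fragments. Their 95% Poisson intervals began at 31.4 and 30.1 FPKM, against ends of up to 62.2 FPKM in WT NAD-Capture. The labels do not say whether the knockout removes DXO RNA, and a captured level is not a measure of RNA amount alone. The label was thus not tested. All directions for that group below are those of the libraries so labelled. Of the HEK293T markers, VIM was at 321 and 308 FPKM in RiboMinus, LIN28B, KRT8, KRT18, NEFL and NEFM were detected, and PAX2 was at 0.0831 and 0.204. Of the 6 markers of other cell types, PTPRC and HBB of blood cells were listed at 0 in all 8 libraries. CD3E (0.930 FPKM in replicate 1 labelled DXO-KO), ALB (0.229 FPKM in RiboMinus replicate 1) and COL1A2 (0.784 FPKM in WT NAD-Capture replicate 3) were above 0 in 1 library each. INS, a marker of islet cells, was listed at 0 in both RiboMinus libraries, against 16.8, 24.9 and 12.8 FPKM for captured WT RNA and 10.1, 22.9 and 0 FPKM under the DXO-KO label. INS was thus above 0 in 5 of 6 captured libraries and in neither baseline library, but the fragments behind these values were not estimated. On 1 kb of effective length (length minus 200 nt), 1 fragment stood for 4.02 to 6.05 FPKM in WT NAD-Capture. It stood for 1.25, 7.24 and 12.4 FPKM in replicates 1, 2 and 3 labelled DXO-KO, and for more on a shorter transcript. The part of other cell types in the results was not tested.

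At baseline PARP1 stood far above the other genes. Its RiboMinus level was 305.1 and 289.7 FPKM, from 12264 and 9536 fragments, and its mean was 13.5 times that of the next gene, SIRT1. PARP1 lay at percentile 99.3 of all gene symbols in both RiboMinus libraries. It stayed between percentiles 98.6 and 98.8 in the 6 NAD-Capture libraries, and made up 65.5% to 78.2% of the summed FPKM of the 10 genes in each of the 8 libraries.

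SIRT1 came next with 22.3 and 21.7 FPKM, then NNT with 20.24 and 20.27, then NADK with 17.5 and 16.3. The 2 replicates of each of these genes lay apart from those of its neighbours in the order. The 95% Poisson intervals of SIRT1 (from 20.2 FPKM in replicate 2) and NNT (up to 21.6 FPKM in replicate 2) overlapped, so their order is not firm. NADSYN1 (8.99 and 10.8 FPKM) and NAMPT (9.31 and 9.14 FPKM) had overlapping replicates, so their order could not be set. NMNAT1 was lower, at 5.55 and 4.39 FPKM, and NAPRT followed at 2.91 and 3.17 FPKM. In replicate 2 the intervals of these 2 genes overlapped (from 3.51 FPKM for NMNAT1, up to 4.19 FPKM for NAPRT).

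NMNAT2 and NMNAT3, the enzymes of axon and mitochondrion, closed the order. NMNAT2 was at 0.938 and 0.952 FPKM, from 54 and 46 fragments. NMNAT3 was at 0.543 and 0.741 FPKM, from 10 and 11 fragments. The 95% Poisson intervals of NMNAT2 (from 0.699 FPKM in replicate 1) and NMNAT3 (up to 1.38 FPKM in replicate 2) overlapped, so the order of these 2 genes is not firm. Both were thus detected in both libraries, and the nuclear NMNAT1 was the most abundant RNA of the 3 NMNAT genes per length. NAMPT, NMNAT1 and PARP1 have pseudogenes of their name in the annotation, and how the counting placed fragments that such copies share is not given in the sources used here, so the levels of these genes are uncertain to that extent.

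**Figure D1:**
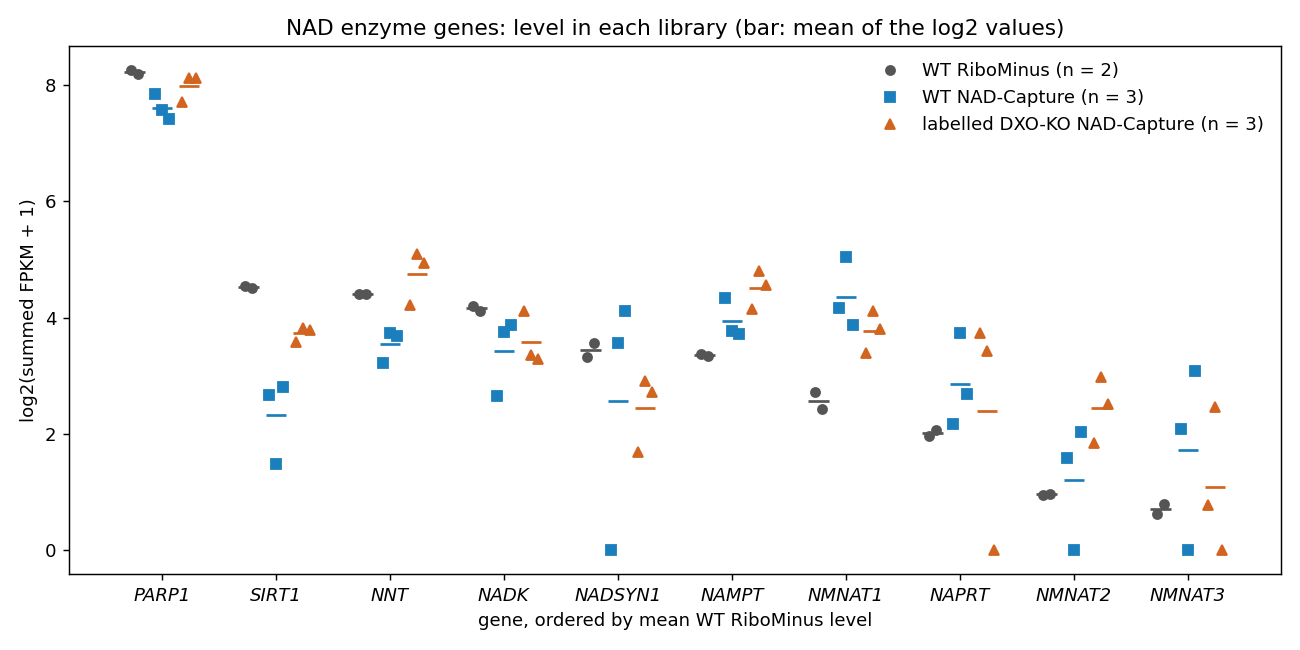
Level of each gene in each library, as log2(summed FPKM + 1), with genes ordered by their mean in WT RiboMinus and bars at the mean of the log2 values. PARP1 lies above all other genes in every library, and points at 0 are libraries in which a gene was listed at 0.

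The first comparison asked which RNAs differed between captured and baseline RNA of wild-type cells. NMNAT1 RNA was higher after capture and SIRT1 RNA was lower, and these were the 2 of the 10 genes past the threshold, an adjusted p of 0.05 in the limma fit of the 17037 genes whose mean FPKM reached 1. In the same fit 24.7% of all genes passed, 16.7% higher and 7.98% lower in capture, so the share among the 10 genes was near that of all genes. All 10 genes passed the filter on low values, NMNAT2 and NMNAT3 only through their captured values. The median log2 difference of the 10 genes was -0.18, against 0.21 over all genes tested.

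NMNAT1, the nuclear enzyme that completes NAD, was at 5.55 and 4.39 FPKM in RiboMinus and at 17.0, 31.8 and 13.6 FPKM after capture (mean 20.8 ± 9.67, SD, n = 3). All 3 captured libraries lay above both baseline libraries. The difference was 1.79 on the log2(FPKM + 1) scale (SE 0.41, limma adjusted p = 0.0308). Only 7, 9 and 12 fragments stood behind the captured values, and their 95% Poisson intervals began at 6.83, 14.7 and 6.97 FPKM, above the upper bounds of 6.53 and 5.37 FPKM at baseline. These intervals, like all below, leave out every error but that of counting, and copies made by PCR do not count as separate molecules. In percentile among all symbols, NMNAT1 lay at 67.8 and 65.1 at baseline and at 83.3, 92.5 and 80.0 after capture.

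The NMNAT1 call ended when each library was centred on its median gene (1.31, limma adjusted p = 0.0642), after quantile normalization (1.52, limma adjusted p = 0.0820), and without WT RiboMinus replicate 1 (adjusted p = 0.201), WT RiboMinus replicate 2 (adjusted p = 0.241) or WT NAD-Capture replicate 1 (adjusted p = 0.0626), with the direction kept each time. LZIC overlaps NMNAT1 in the annotation and was at 20.4 and 17.7 FPKM at baseline and 33.8, 4.91 and 3.26 after capture; use of strand in the counting was not given in the sources used here, and its part in the result was not tested.

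SIRT1, the deacetylase, was at 22.3 and 21.7 FPKM in RiboMinus and at 5.39, 1.80 and 5.99 FPKM after capture (mean 4.39 ± 2.27, SD, n = 3). All 3 captured libraries lay below both baseline libraries. The difference was -2.20 on the log2 scale (SE 0.47, limma adjusted p = 0.0254). The captured values rested on 4, 1 and 5 fragments, against 912 and 728 at baseline. Their 95% intervals ended at 13.7, 9.95 and 13.9 FPKM, below the lower bounds of 20.9 and 20.2 FPKM at baseline. In percentile, SIRT1 moved from 86.6 and 86.3 to 59.8, 45.2 and 60.9. The call ended without WT RiboMinus replicate 1 (adjusted p = 0.229) or replicate 2 (adjusted p = 0.218), where a lone baseline library was assumed to vary like the captured ones, and when each transcript was fitted on its own (-3.43, limma adjusted p = 0.0855).

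The other 8 genes did not pass. NNT was at 20.24 and 20.27 FPKM at baseline and at 8.27, 12.4 and 11.9 FPKM after capture, with a log2 difference of -0.86 (SE 0.26, limma adjusted p = 0.0673). PARP1 was at 305.1 and 289.7 FPKM at baseline and at 228.5, 188.8 and 169.8 after capture, a log2 difference of -0.61 (SE 0.20, limma adjusted p = 0.0785). For both genes all captured libraries lay below both baseline libraries. Both passed after centring on the median gene (NNT -1.34, limma adjusted p = 0.0182; PARP1 -1.09, adjusted p = 0.0156) and without WT NAD-Capture replicate 1 (NNT -0.69, adjusted p = 0.0383; PARP1 -0.73, adjusted p = 0.0352). NNT also passed among genes above 0 in every library (adjusted p = 0.0491), and PARP1 after quantile normalization (-1.17, adjusted p = 0.00644).

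NAMPT was at 9.31 and 9.14 FPKM at baseline and at 19.2, 12.6 and 12.1 FPKM after capture, a log2 difference of 0.58 (limma adjusted p = 0.209). NAPRT was at 2.91 and 3.17 FPKM and at 3.51, 12.2 and 5.43 FPKM, the latter from 1, 3 and 2 fragments (0.85, limma adjusted p = 0.294). NADK was at 17.5 and 16.3 FPKM and at 5.28, 12.5 and 13.7 FPKM (-0.73, limma adjusted p = 0.275). The replicates of NAMPT and NAPRT lay above baseline without overlap and those of NADK below it. With NMNAT1 and with SIRT1, NNT and PARP1, this made 3 of 10 genes above (28.7% of all genes tested) and 4 of 10 below (26.9% of all genes tested).

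NADSYN1 spread widely after capture, at 0, 10.8 and 16.2 FPKM against 8.99 and 10.8 at baseline (-0.89, limma adjusted p = 0.623). NMNAT2 was at 2.00, 0 and 3.11 FPKM after capture, and NMNAT3 at 3.22, 0 and 7.47 FPKM. The 0 of NMNAT2 in WT NAD-Capture replicate 2 allows up to 3.39 FPKM at 3 counts and that of NMNAT3 up to 11.4 FPKM, both above the baseline levels. The other 2 captured libraries of each gene lay above baseline, from 2 and 4 fragments for NMNAT2 and 1 and 3 for NMNAT3. A single NMNAT3 fragment stood for 3.44 and 2.66 FPKM there, so any detected fragment places NMNAT3 above its baseline. Neither gene passed (NMNAT2 0.25, limma adjusted p = 0.828, and NMNAT3 1.01, adjusted p = 0.500). Without WT NAD-Capture replicate 2, the library listed at 0 for both genes, the differences were 0.85 (limma adjusted p = 0.154) and 1.87 (adjusted p = 0.0554). Both genes entered the fit only through their captured values, so these differences support nothing.

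**Figure D2:**
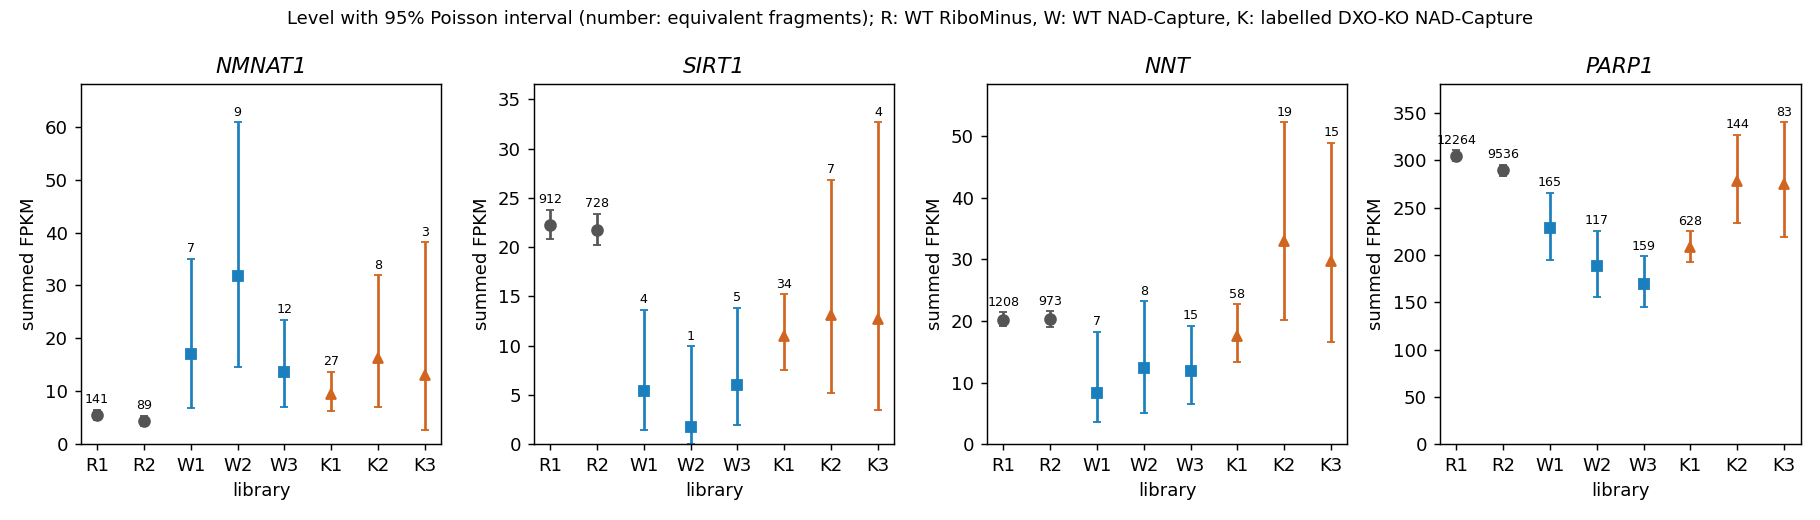
Summed FPKM of NMNAT1, SIRT1, NNT and PARP1 in each library with its 95% Poisson interval (counting error only) and the equivalent number of fragments above each bar. The intervals of SIRT1 in WT NAD-Capture end at or below 13.9 FPKM, under the baseline, and those of the 2 shallower libraries labelled DXO-KO (replicates 2 and 3) are wide.

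The second comparison set the libraries labelled DXO-KO against WT NAD-Capture, with the same capture and kit in both groups, and asked whether captured RNA differs where DXO is labelled as lost. None of the 10 genes passed the threshold in the limma fit, in which 6 of 17784 genes (0.0337%) passed and 2970 had an unadjusted p under 0.05. The 10 genes had a median log2 difference of 0.27, with 6 higher and 4 lower, against -0.016 over all genes. NNT and SIRT1 were the 2 genes whose replicates did not overlap, both higher in the libraries labelled DXO-KO. In all, 11.8% of genes tested lay wholly above and 11.5% wholly below.

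NNT was at 17.6, 33.0 and 29.8 FPKM in the libraries labelled DXO-KO (mean 26.8 ± 8.11, SD, n = 3) and at 8.27, 12.4 and 11.9 FPKM in those of captured WT RNA (mean 10.8 ± 2.25, SD, n = 3). The log2 difference was 1.20 (SE 0.39, limma adjusted p = 0.200). Fragment numbers were 58, 19 and 15 against 7, 8 and 15, and the 95% intervals of the 2 groups overlapped (up to 23.2 FPKM in WT replicate 2, from 13.4 FPKM in replicate 1 labelled DXO-KO). NNT-AS1, antisense to NNT, was at 6.87, 21.2 and 9.05 FPKM in the libraries labelled DXO-KO against 6.73, 1.96 and 7.84 FPKM in WT NAD-Capture, and its part in the values of NNT was not tested.

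SIRT1 was at 11.0, 13.2 and 12.8 FPKM in the libraries labelled DXO-KO (mean 12.3 ± 1.15, SD, n = 3), above the 5.39, 1.80 and 5.99 FPKM of WT NAD-Capture. The log2 difference was 1.41 (SE 0.52, limma adjusted p = 0.242). Fragment numbers were 34, 7 and 4 against 4, 1 and 5. PARP1, the best-counted gene, was at 208.4, 278.5 and 275.5 FPKM against 228.5, 188.8 and 169.8, and the groups overlapped (log2 difference 0.37, limma adjusted p = 0.524).

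Of the salvage enzymes, NAMPT was at 16.7, 26.8 and 22.7 FPKM in the libraries labelled DXO-KO against 19.2, 12.6 and 12.1 (0.57, limma adjusted p = 0.453). NMNAT1 was at 9.49, 16.3 and 13.0 FPKM against 17.0, 31.8 and 13.6 (-0.58, limma adjusted p = 0.504). NMNAT2 was at 2.60, 6.86 and 4.73 FPKM, from 11, 5 and 2 fragments, against 2.00, 0 and 3.11. The replicates of all 3 genes overlapped between the groups.

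NADK was at 16.4, 9.20 and 8.79 FPKM in the libraries labelled DXO-KO, NADSYN1 at 2.23, 6.49 and 5.58, NAPRT at 12.3, 9.76 and 0, and NMNAT3 at 0.719, 4.48 and 0. Each overlapped its WT NAD-Capture values. The 0 of NAPRT in replicate 3, the shallowest library, allows up to 23.2 FPKM at 3 counts, and that of NMNAT3 allows up to 23.5 FPKM.

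The last comparison set the libraries labelled DXO-KO against WT RiboMinus. It shares libraries with both comparisons above, so its values only stand beside theirs. None of the 10 genes passed the threshold in the limma fit, against 503 of 15088 genes (3.33%) with 3188 at an unadjusted p under 0.05. The median log2 difference of the 10 genes was 0.35, against 0.20 over all genes. NAMPT (1.15, limma adjusted p = 0.110), NMNAT1 (1.20, adjusted p = 0.143) and NMNAT2 (1.49, adjusted p = 0.214) lay wholly above baseline, as did 24.2% of all genes tested. NMNAT2 and NMNAT3 entered this fit, too, only through their captured values, so the place of NMNAT2 above baseline supports nothing. NADSYN1 (-1.01, adjusted p = 0.325), PARP1 (-0.24) and SIRT1 (-0.79, adjusted p = 0.163) lay wholly below, as did 20.2%.

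In summed FPKM NMNAT1 was thus above baseline and SIRT1 below it in every captured library, with the same 2 RiboMinus libraries as baseline for both groups. The 95% intervals of NMNAT1 in replicates 1 and 3 labelled DXO-KO began at 6.19 and 2.69 FPKM, under the upper bound of 6.53 FPKM at baseline. Those of SIRT1 in replicates 2 and 3 ended at 26.8 and 32.7 FPKM, above its baseline. The share of all genes on 1 side in both groups was not counted. NAMPT passed without replicate 1 labelled DXO-KO (1.33, limma adjusted p = 0.0485), NAPRT without replicate 3 (1.56, adjusted p = 0.0417), and PARP1 after quantile normalization (-1.13, adjusted p = 0.0248). NNT, at 17.6, 33.0 and 29.8 FPKM, overlapped its baseline of 20.24 and 20.27 FPKM (0.34).

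**Figure D3:**
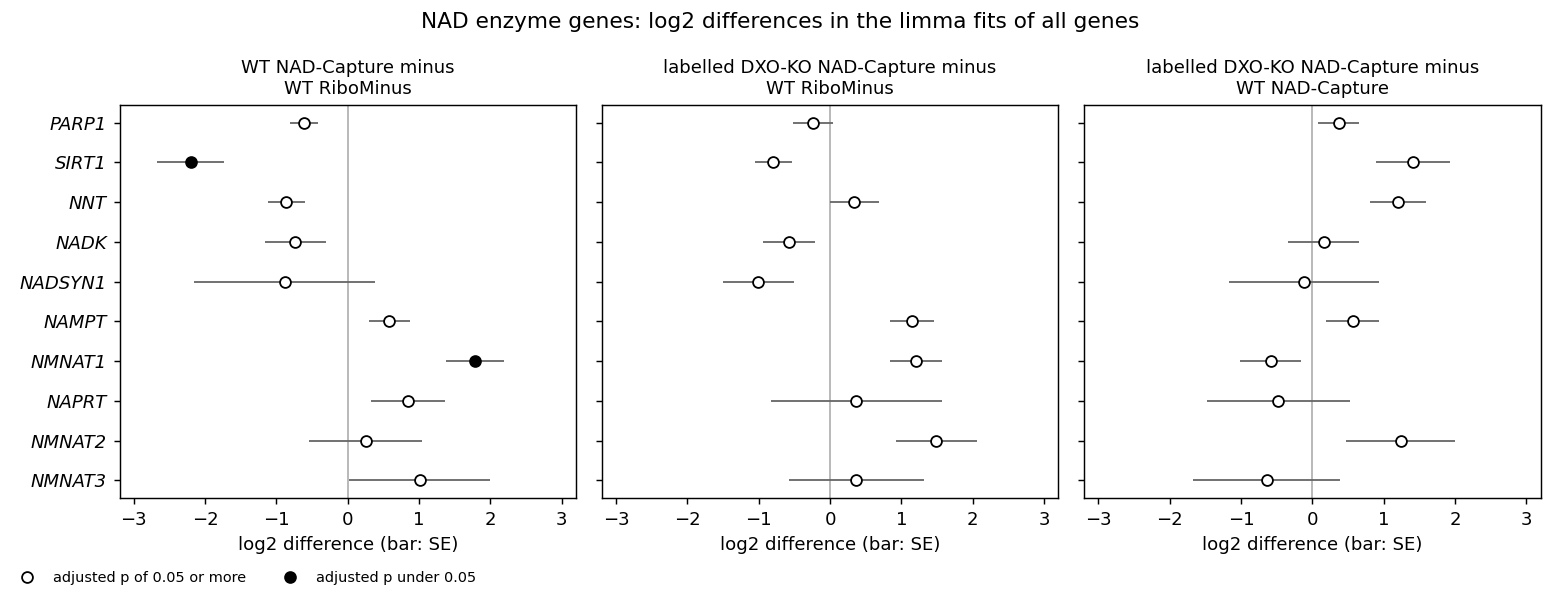
Log2 differences with their standard errors (bars) for the 10 genes in the 3 comparisons, on the log2(FPKM + 1) scale, with filled points for an adjusted p under 0.05. The filled points are NMNAT1 (1.79) and SIRT1 (-2.20) in the left panel, captured against baseline RNA of wild-type cells.

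A level after capture joins how much RNA of a gene there is with how much of it carries NAD, and no RiboMinus library labelled DXO-KO was analysed here. In bulk RNA, fewer cells of a type and less RNA per cell cannot be told apart either.

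Of the genes, 7 had more than 1 transcript row, and the split between rows differed between baseline and capture for several. Each transcript was fitted on its own for this purpose. In WT NAD-Capture against WT RiboMinus 25.7% of 24777 transcripts passed, and 4 of them belonged to the 10 genes. In the libraries labelled DXO-KO against WT RiboMinus 14% of 22429 transcripts passed, of which 2 belonged to these genes. Between the capture groups 0.032% of 25004 transcripts passed, none of them of these genes. The 10 genes had 20 transcript rows, and rows under the filter on low values were not tested. These counts are thus not read as a result about the 10 genes.

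NADK showed the clearest split. Its transcript NM_023018 held 54.0% and 44.3% of the NADK level at baseline, at 9.43 and 7.22 FPKM from 306.2 and 192.0 fragments. It was under 1 fragment in all 6 captured libraries, where the values were 0.00247 FPKM or less. All NADK transcripts together rested there on 3, 5 and 10 fragments in WT and on 31, 4 and 1 under the DXO-KO label. The log2 difference of NM_023018 was -3.21 in both captured groups (limma adjusted p = 0.00352 for WT and 0.0117 for the libraries labelled DXO-KO). NM_001198993, at 7.59 and 8.58 FPKM at baseline, was at 5.28, 9.17 and 13.7 FPKM in captured WT RNA (0.11, limma adjusted p = 0.874), so within NADK one transcript passed as lower and another did not pass.

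NAPRT, the first enzyme of the nicotinic acid route, was assigned to NM_145201 at baseline (2.91 and 3.17 FPKM) and to NM_001286829 in WT NAD-Capture (3.50, 12.2 and 5.42 FPKM). Both passed, NM_145201 as lower (-2.01, limma adjusted p = 0.0111) and NM_001286829 as higher (2.86, limma adjusted p = 0.0277). NM_001286829, at 0.00106 FPKM or less at baseline, entered the fit only through the captured libraries where it is high. The captured values rested on 1, 3 and 2 fragments in all. In replicate 1 labelled DXO-KO, with 17 fragments for NAPRT, 99.99% of the level was on NM_145201. In replicate 2 so labelled, with 2 fragments, 99.96% was on NM_001286829, and in replicate 3 NAPRT was listed at 0.

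NMNAT1 was carried by NM_022787 and NM_001297779 at baseline, with 55.4% and 51.9% on NM_022787. NM_022787 passed as higher in WT NAD-Capture, at 7.87, 9.46 and 13.6 FPKM against 3.07 and 2.28 (1.60, limma adjusted p = 0.0303). SIRT1 was mostly NM_012238 at baseline, at 19.2 and 18.6 FPKM. Its shorter transcript NM_001142498, at 3.03 and 3.11 FPKM at baseline, was at 0.0037 FPKM or less in the libraries labelled DXO-KO and passed there as lower (-2.02, limma adjusted p = 0.0199). In WT NAD-Capture replicates 2 and 3 the same transcript held 100.0% of the 1 and 5 fragments of SIRT1.

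NNT was split at baseline, with 67.5% and 63.1% on NM_012343 and the rest on NM_182977. NM_182977 held 99.8% or more in 4 captured libraries (WT replicates 1 and 2 and replicates 1 and 2 labelled DXO-KO), 51.1% in WT replicate 3 and none in replicate 3 labelled DXO-KO. Neither NNT transcript passed in any of the 3 comparisons. The captured shares of NNT rested on 7, 8 and 15 fragments in WT and on 58, 19 and 15 in the libraries labelled DXO-KO, and the part of such low numbers in the splits of all 7 genes was not tested.

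**Figure D4:**
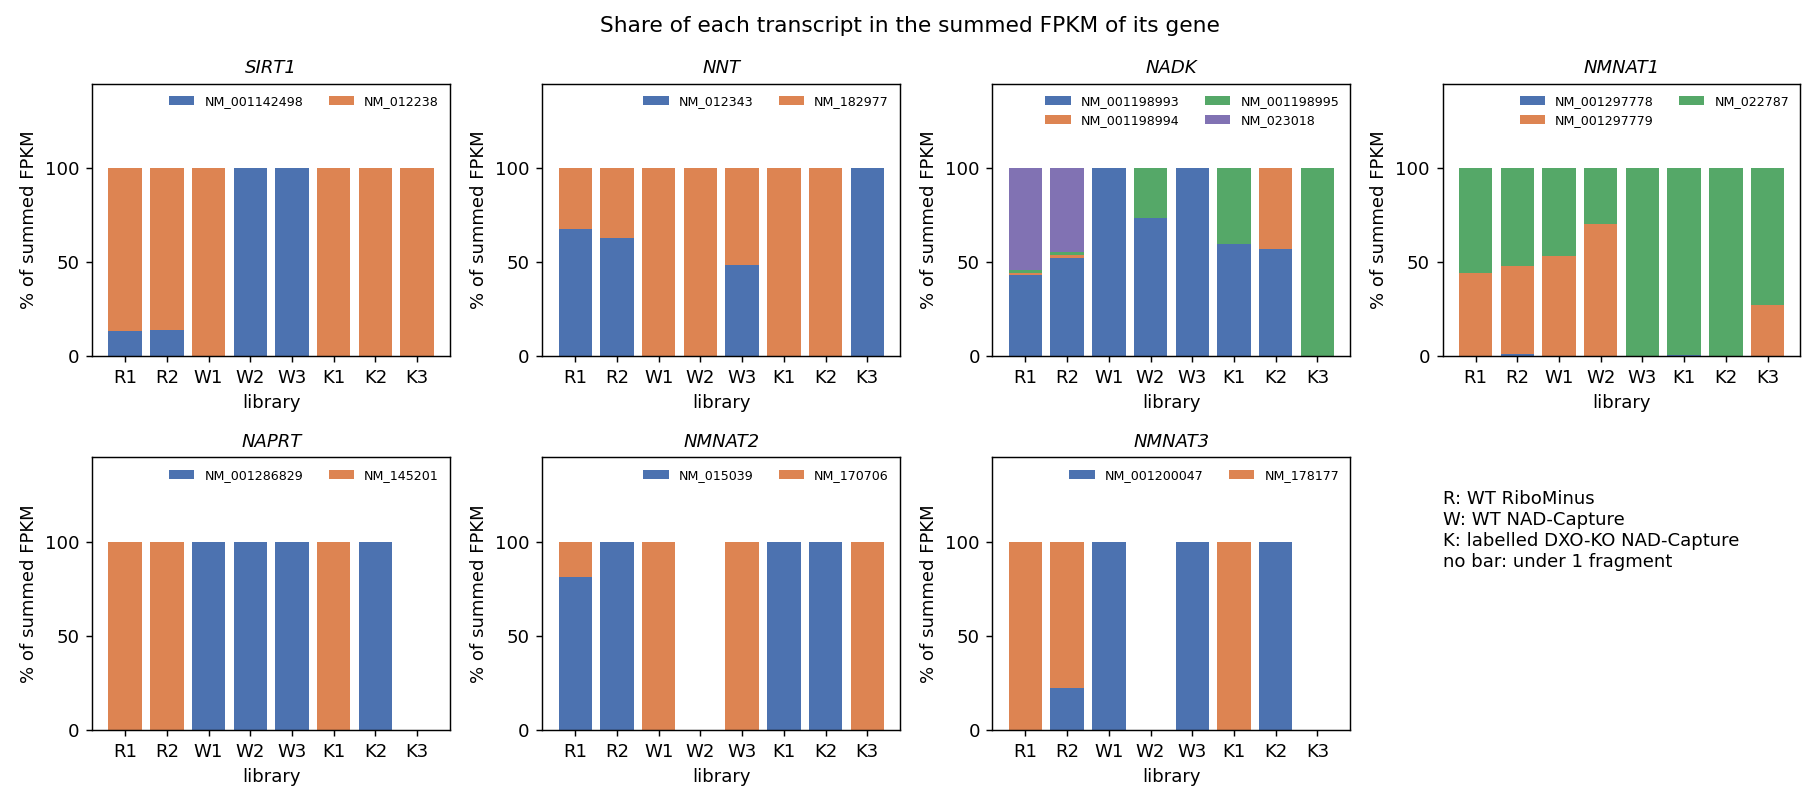
Share of each transcript in the summed FPKM of its gene, in percent, for the 7 genes with more than 1 transcript row, in the 8 libraries (no bar where a gene had under 1 fragment). NM_023018 of NADK fills 54.0% and 44.3% of the baseline bars and is missing from the captured ones.

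Beyond the 10 genes, 44 other genes of NAD metabolism were read from the same fits. At baseline the highest were NAXE, which repairs hydrated NADH and NADPH (110.7 and 106.3 FPKM), PARP2, a relative of PARP1 in DNA repair (26.9 and 24.6 FPKM), and SIRT2, a cytoplasmic deacetylase (21.9 and 20.5 FPKM). In WT NAD-Capture against WT RiboMinus, 4 of 32 tested genes passed as higher and 1 as lower (15.6% in all, against 24.7% of all genes), 2 of the 4 only because their captured values carried them past the filter on low values. Their median log2 difference was -0.23. Between the capture groups 0 of 34 passed, and in the libraries labelled DXO-KO against WT RiboMinus 1 of 31 passed, DXO itself (2.61, limma adjusted p = 0.0327).

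Of 9 genes of de novo synthesis from tryptophan, 3 could be tested in WT NAD-Capture against WT RiboMinus, and 2 passed as higher. Of all genes 24.7% passed, 16.7% as higher, and a count among 3 genes supports nothing about the pathway. The other gene tested, HAAO, was at 0.426 and 0.518 FPKM at baseline and at 4.68, 0 and 0 FPKM after capture. HAAO passed the filter on low values only through WT NAD-Capture replicate 1. AFMID, the formamidase of that pathway, was at 14.7 and 13.4 FPKM at baseline and at 74.0, 78.2 and 31.2 FPKM after capture (1.94, SE 0.44, limma adjusted p = 0.0310). QPRT, which makes nicotinic acid mononucleotide from quinolinate, was at 7.82 and 6.61 FPKM and at 22.7, 30.8 and 14.6 FPKM (1.47, SE 0.36, limma adjusted p = 0.0366). The captured values of AFMID rested on 22, 20 and 12 fragments and those of QPRT on 9, 11 and 8.

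Of 15 other ADP-ribosyltransferase genes 13 were tested in that comparison, with 2 higher and 1 lower. The 2 higher genes, PARP10 and PARP12, passed the filter on low values only through the captured libraries where they are high, so these counts support nothing. PARP10 was at 0.142 and 0.139 FPKM at baseline, from 5 and 4 fragments, and at 11.0, 16.5 and 19.6 FPKM after capture, from 7, 9 and 16 fragments (3.84, SE 0.36, limma adjusted p = 0.00318). PARP10 was at 6.44, 4.40 and 3.74 FPKM in the libraries labelled DXO-KO. SPATC1, which overlaps PARP10 in the annotation, was at 0 and 0 FPKM at baseline and at 33.5, 7.08 and 42.4 FPKM after capture, and its part in the PARP10 values was not tested. PARP12 was listed at 0 and at 0.0334 FPKM at baseline and was at 3.03, 3.53 and 4.70 FPKM after capture, from 2, 2 and 3 fragments (limma adjusted p = 0.0266). PARP6 was at 19.3 and 16.7 FPKM at baseline and at 4.29, 0 and 1.66 FPKM after capture (-2.97, SE 0.73, limma adjusted p = 0.0383). All 5 calls ended when either RiboMinus library was left out, with limma adjusted p between 0.0614 and 0.287; without WT NAD-Capture replicate 1 those of AFMID (0.0828) and QPRT (0.0821) ended, without replicate 2 that of AFMID (0.0691) and without replicate 3 that of PARP6 (0.0904). Beside the replicate block, the other alternatives left PARP10 past the threshold where they gave a value. AFMID did not pass with no filter (limma adjusted p = 0.0516), after centring (0.0591) or in the fit of all 8 libraries (0.0770). QPRT did not pass in the same 3 settings (0.0522, 0.0920 and 0.0645), after quantile normalization (0.0761) or as a single transcript (0.0592). PARP6 did not pass with a pseudocount of 0.1 (0.133), with no filter (0.0689), as a single transcript (0.0680) or in the fit of all 8 libraries (0.122). PARP12 did not pass after quantile normalization (0.128) or in the fit of all 8 libraries (0.0908).

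None of the 6 other sirtuins passed in any of the 3 comparisons, with 6, 6 and 5 of them tested. KYNU, ACMSD and IDO1 of the tryptophan pathway, the transporter SLC25A52 and the NAD hydrolase CD38 were listed at 0 in all 8 libraries.

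The genes whose level followed that of PARP1 most closely over the 8 libraries, among 9021 symbols above 0 in every library, were OGFOD1 (Pearson r = 0.991), SLC39A10 (r = 0.980) and MSH6 (r = 0.979). OGFOD1 was at 33.4 and 33.3 FPKM at baseline, at 16.7, 10.8 and 7.17 FPKM in captured WT RNA, and at 15.5, 28.4 and 26.4 FPKM where DXO-KO was the label. These correlations are a description over 8 libraries whose kit and capture go by group and whose depth differs, also within a group.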

How the data were processed

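The authors deposited 1 table of FPKM per RefSeq transcript, used as deposited; per the submitters' processing notes TopHat2 2.1.1, Bowtie2 2.2.8.0, Cuffdiff and build hg19 were used, with roles, annotation and scaling between libraries not given in the sources used here. RefSeq symbols (GRCh38.p14) paired 52028 rows and GENCODE 29 a further 728, and FPKM was summed per symbol. Depth came from the step of low values of 7163 single-transcript genes of 1500 to 6000 nt (effective length: length minus 200 nt); 72.9% to 75.6% of low values lay within 0.1 of a whole fragment. The NADSYN1 estimates were not near whole numbers and are not given. Differences were fitted with limma 3.58.1 (R 4.3.3; lmFit, eBayes with trend) on log2(FPKM + 1), two-sided, on the libraries of the 2 groups compared only, for symbols with a mean FPKM of at least 1, with Benjamini-Hochberg adjustment over all of them. This scale understates changes of low genes. The fit was also run on simulated data with normal noise, in which only genes above a cut on their mean level were changed. That run does not cover genes of few fragments, and no result here rests on it.

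The genes and lists were chosen with earlier results of these data known. Named were the 10 genes, DXO, the other NAD genes past the threshold, the 3 of them highest in RiboMinus, and the 3 symbols closest to the highest gene by Pearson r. Alternatives were another pseudocount (0.1), other filters (none, a mean of 10, above 0 in every library), centring, quantile normalization, single transcripts, a fit of all 8 libraries, the replicate number as a block, leaving out each replicate, and full length as effective length.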

Additional observations from a re-analysis of the deposited data

How the results depend on the processing

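Of the 10 genes' values under the alternatives, 357 kept direction and side of the threshold, 10 became weaker, 10 stronger and 27 reversed. Most of the 357 had no call to lose. The 10 weaker were lost calls of WT NAD-Capture against WT RiboMinus, 6 of 14 for NMNAT1 and 4 of 14 for SIRT1. No cause was tested, beyond the genes or libraries a setting removes. For libraries labelled DXO-KO against WT NAD-Capture, 6 genes of all passed, and 4 with a pseudocount of 0.1, 4 with no filter, 72 among genes above 0 in every library, 11 after centring, 27 after quantile normalization, 441 in the fit of all 8 libraries and 4 to 16 without a replicate; none of the 10 genes passed in any of them. For WT NAD-Capture against WT RiboMinus, 4210 passed, and 2383 at a mean FPKM of at least 10, 2414 after quantile normalization, 6363 as single transcripts, 2647 in the fit of all 8 libraries and 19 to 5377 without a replicate (19 and 30 without RiboMinus replicate 1 or 2). Of the 10 genes 2 passed, 3 among genes above 0 in every library, 3 after centring and 0 to 3 without a replicate. For libraries labelled DXO-KO against WT RiboMinus, 503 passed, and 85 with no filter, 1536 among genes above 0 in every library, 812 after quantile normalization, 3148 as single transcripts, 880 in the fit of all 8 libraries and 1 to 1519 without a replicate. Of the 10 genes 0 passed, 1 after quantile normalization and 0 to 1 without a replicate.

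Centring moved the median log2 difference of all genes from 0.21 to -0.26 in WT NAD-Capture against WT RiboMinus and the share of calls that were higher from 67.7% to 41.8%. It moved them from 0.20 to -0.044 and from 74.4% to 54.6% for libraries labelled DXO-KO against WT RiboMinus, and from -0.016 to 0.11 and from 50.0% to 63.6% between the capture groups. After quantile normalization these shares were 60.7%, 57.6% and 29.6%. NMNAT1 and SIRT1 kept their directions under all 14 alternatives in WT NAD-Capture against WT RiboMinus, with NMNAT1 at 1.31 to 2.03 (limma adjusted p 0.0141 to 0.241) and SIRT1 at -3.43 to -1.78 (0.0104 to 0.229). NNT was at -0.86 among genes above 0 in every library and -1.34 after centring, and PARP1 at -1.09 after centring and -1.17 after quantile normalization. NAPRT was at 2.86 as a single transcript, NM_001286829, which entered the fit only through captured values from 1, 3 and 2 fragments. NM_145201 of NAPRT passed as lower, so the 2.86 supports nothing about the gene.

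Reversed between the capture groups were NADSYN1 (0.76 with a pseudocount of 0.1, 0.0062 after centring) and, as single transcripts, NMNAT1 (0.16), NMNAT2 (-0.37), NADK (-1.26) and NNT (-0.16). Without a replicate NADK ranged from -0.23 to 0.39, NADSYN1 from -1.40 to 0.66, NMNAT3 from -1.50 to 0.040 and NAPRT from -1.15 to 0.72. Reversed in WT NAD-Capture against WT RiboMinus were NMNAT2 (-0.25 with a pseudocount of 0.1, -0.23 after centring, -0.99 after quantile normalization), NMNAT3 (-0.12 after quantile normalization) and, as single transcripts, NADK (0.11) and NNT (0.26). Without a replicate NADSYN1 ranged from -1.66 to 0.39. Reversed for libraries labelled DXO-KO against WT RiboMinus were NMNAT3 (-0.029 with a pseudocount of 0.1, -0.049 after quantile normalization) and NAPRT (-0.45 with a pseudocount of 0.1, -0.77 as a single transcript, -0.30 to 1.56 without a replicate). DXO passed between the capture groups in the fit of all 8 libraries (limma adjusted p = 0.0492) and in WT NAD-Capture against WT RiboMinus without WT NAD-Capture replicate 2 (1.18, adjusted p = 0.0300); in libraries labelled DXO-KO against WT RiboMinus its call ended with no filter (adjusted p = 0.0662) and without RiboMinus replicate 1, RiboMinus replicate 2 or replicate 2 labelled DXO-KO (adjusted p 0.457, 0.336 and 0.0859).

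In libraries with the same number, deviations from the group means correlated between -0.044 and 0.023, against -0.048 to 0.048 for different numbers. With 2 RiboMinus libraries these deviations mirror each other, and the captured libraries were shallow. Whether equal numbers mean a shared origin thus cannot be told. With the replicate number as a block 4, 0 and 0 genes of all and 0 of the 10 genes passed in the 3 comparisons, with 5761 and 3596 at an unadjusted p under 0.05 in the comparisons with WT RiboMinus. With that replicate block NMNAT1 was at 2.03 (adjusted p = 0.126), SIRT1 at -2.44 (adjusted p = 0.112) and NMNAT2 at -0.17 in WT NAD-Capture against WT RiboMinus. AFMID (adjusted p = 0.0972), QPRT (0.102), PARP6 (0.153), PARP10 (0.0972) and PARP12 (0.0972) lost their calls, as did DXO for libraries labelled DXO-KO against WT RiboMinus (0.177). Genes failing a filter gave no value there.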
